A study of Homo sapiens with 6 samples.

Results

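The mRNAs of 45 genes that act in the nucleolus in ribosome biogenesis were followed in HEK293T cells that were growing or in which mTOR had been inactivated with PP242. The genes were listed by name for their known roles, at a time when earlier results of these data were known. They comprise 9 genes of RNA polymerase I transcription, 6 abundant nucleolar proteins, 4 proteins of the box C/D and U3 snoRNPs, 4 proteins of the box H/ACA snoRNPs, 12 small subunit processome and assembly factors and 10 large subunit assembly factors. All 45 were found, with 75 RefSeq transcripts of their own, among 20172 named genes and 38438 transcripts. HEK293T is a human kidney-derived line that carries the SV40 large T antigen, and PP242 at 2.5 µM blocks the mTOR kinase. The sources used here do not tie these libraries to a duration of treatment. Levels of mRNA came from strand-specific mRNA-seq of 2 growing and 2 PP242 libraries, deposited as RPKM, reads scaled to library size and to transcript length. RNA bound by endogenous LARP1 came from PAR-CLIP of 1 growing and 1 PP242 library, made from cells fed 100 µM 4-thiouridine for 14 hr and crosslinked with 150 mJ/cm2 of ultraviolet light, and deposited as sites with reads scaled to library size (RPM).

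Ribosomes are built mainly in the nucleolus, where RNA polymerase I transcribes the long precursor of the rRNAs. Small nucleolar RNPs guide the methylation (box C/D) and pseudouridylation (box H/ACA) of that precursor, the U3 snoRNP and the small subunit processome carry out its first cleavages, and other sets of factors assemble each subunit. mTOR promotes both the transcription of rRNA and the translation of mRNAs that start with a terminal oligopyrimidine tract (TOP), a C at the cap followed by a run of C and T. LARP1 is an RNA-binding protein that binds such mRNAs downstream of mTOR.

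Because LARP1 is studied for its binding to TOP mRNAs, the annotated starts of the members were read from RefSeq promoter windows (GRCh38.p14) of 300 bases, 250 before and 50 after the start. An entry was found for 38 members, and RRS1, BOP1, RRP12, DDX18, NOP58, NOLC1 and POLR1E had none in the table. A C followed by at least 4 C or T at the start was found in 4 of the 38 (10.5%), against 6.24% of 15842 protein-coding genes with an entry. The first 20 bases of the transcript are shown, with the unbroken pyrimidine run in capitals. Exact matching placed them in GRCh37 at chr5:170814853-170814872 (plus strand) for NPM1, chr19:40337000-40337019 (minus) for FBL, chr10:70715926-70715945 (plus) for DDX21 and chr16:69788810-69788829 (minus) for NOB1. For DDX21 this is 1 of the starts that RefSeq annotates.
NPM1: CTTTCCCTggtgtgattccg
FBL: CTTTTCCacgtgcgaaagcc
DDX21: CTCTTCCTCTCCacgcggtt
NOB1: CTCTCacgcagccaacatgg

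A second feature read in these windows was CACGTG, the E-box bound by MYC and related factors, which reads the same on both strands. It was found in 15 of the 38 members (39.5%), against 10.9% of the 15842 protein-coding genes. The sites that lie wholly before a start are shown in windows of 26 bases with the motif in capitals, to let the flanks be compared. That of DDX21 precedes another annotated start of the gene than the one printed above and lies downstream of the latter. In GRCh37 they lie at chr4:4291797-4291822 (minus) for LYAR, chr12:101673857-101673882 (plus) for UTP20, chr10:70716362-70716387 (plus) for DDX21, chr2:131100257-131100282 (plus) for IMP4, and chr15:34635338-34635363 and chr15:34635492-34635517 (minus) for NOP10. These are matches of letters, and no binding to them was measured.
LYAR: gcggcgagtcCACGTGctccccgcgg
UTP20: cgttcttttttccgtcCACGTGaccc
DDX21: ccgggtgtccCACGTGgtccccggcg
IMP4: ggtcctaagtCACGTGtgacattctg
NOP10, site nearer the start: aaggaaattgacgaaCACGTGacgcg
NOP10, site farther from the start: agggacactcCACGTGttttagcctg

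The steps between low snoRNA values placed the mRNA-seq libraries at about 32000000 to 34000000 mapped reads each, and 36046 to 36149 transcripts had a value above 0. Of the markers of the line, LIN28B was at 19.1 to 19.9 RPKM NEFL at 6.79 to 7.61 RPKM and NEFM at 10.4 to 18.2 RPKM, whereas PAX2 was close to absent at 0.108 to 0.136 RPKM. Markers of other cell types were near 0 for leukocytes (PTPRC, 0 to 0.0259 RPKM), endothelium (PECAM1, 0.0091 to 0.0214 RPKM) and hepatocytes (ALB, 0.0254 to 0.0402 RPKM), and the fibroblast gene COL1A1 was at 1.76 to 1.84 RPKM in every library.

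To see whether mTOR inactivation changed the mRNAs of ribosome biogenesis genes, each gene was followed by its transcript with the highest mean RPKM. After PP242, 11 of the 45 mRNAs fell (24.4%) and 1 rose (2.22%), while 33 did not pass the test. NOP56, among those that fell, was followed by a non-coding transcript, and without it 10 of 44 fell (22.7%). Of all 11763 genes tested in the same way, 8.34% fell and 3.94% rose. The decreases were small. RRS1, a large subunit assembly factor, dropped by 29.3%, and the other 10 fell by 8.08% to 17.7%. The test was limma on log2(RPKM + 1) with Benjamini-Hochberg adjustment over 21014 transcripts and a threshold of 0.05, and all 45 members passed its filter of a mean of at least 1 RPKM. Without that filter no member passed, and 0.258% of all genes were lower and 0.174% higher. In that fit 16 members lay below and 2 above growing at an unadjusted p under 0.05, as did 12.5% and 9.17% of all genes. When each library was left out in turn, 5 to 7 members fell and none rose, against 3.65% to 5.08% and 1.69% to 1.96% of all genes in the same fits. In bulk RNA, fewer cells with an mRNA and less of it per cell cannot be told apart.

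The median log2 change of the 45 mRNAs was -0.06, beside -0.0049 for all genes tested. The change was negative for 36 members and positive for 9, while 52.2% of all genes were negative. When the libraries were scaled to 1 upper quartile the counts were 32 and 13, with 45.4% of all genes negative. When scaled to 1 median ratio they were 35 and 10, with 51.8% of all genes negative. Both PP242 libraries lay below both growing libraries for 30 members and above them for 6, whereas 31.7% of all genes tested lay below and 27.7% above in this way. By library, the median difference of the members from the growing mean was -0.0529 in PP242 replicate 1 and -0.0585 in PP242 replicate 2 on the log2 scale, so both libraries were low to a similar degree. The plot of all members by library shows most genes a little to the left of the growing mean and a few, led by RRS1, far from it.

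**Figure D1:**
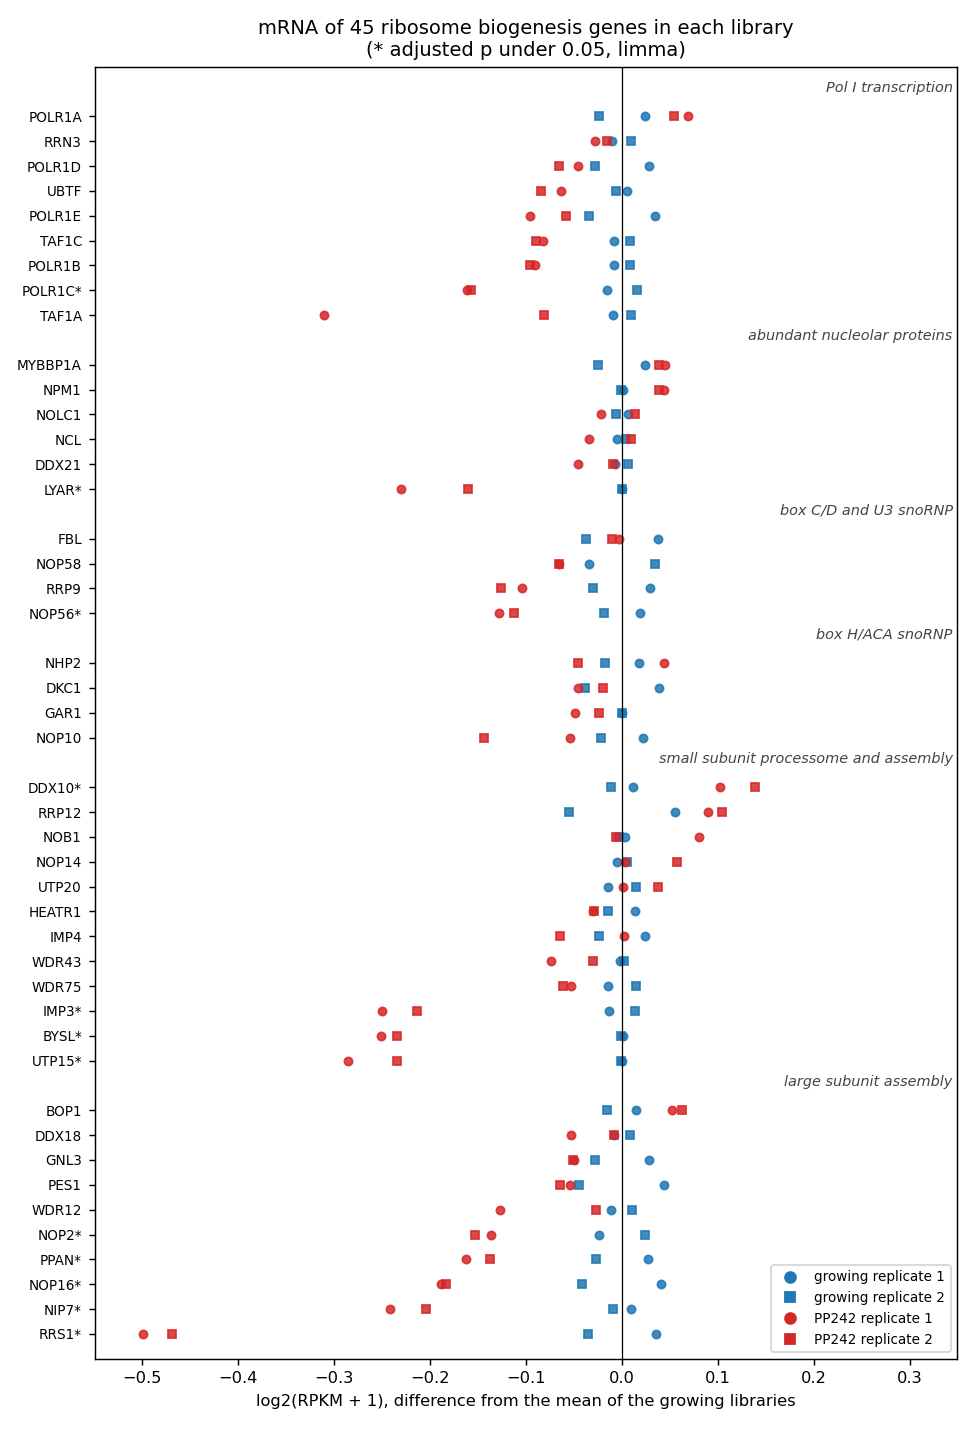
Difference of log2(RPKM + 1) in each mRNA-seq library (circles, replicate 1; squares, replicate 2; blue, growing; red, PP242) from the mean of the growing libraries, for 45 genes ordered by role. An asterisk marks the 12 genes with an adjusted p under 0.05 in limma, of which 11 lie to the left and DDX10 to the right.

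**Figure D2:**
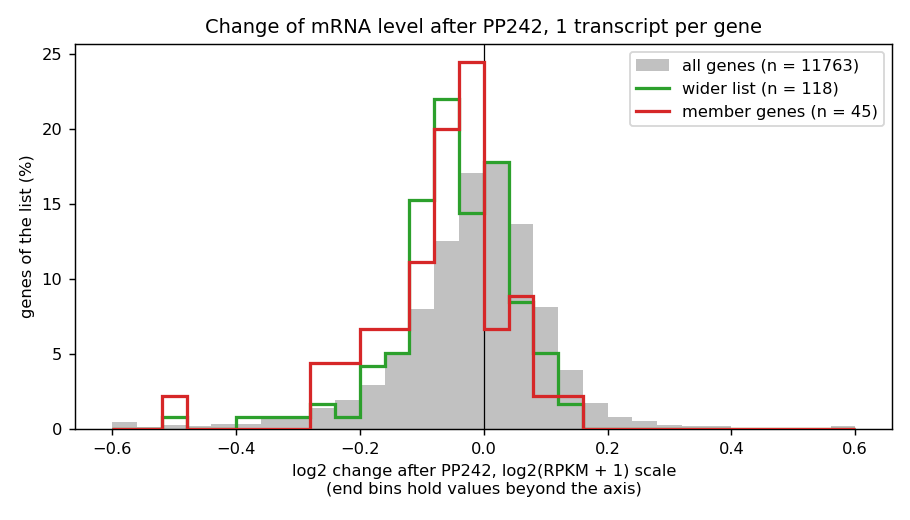
Percentage of genes in bins of log2 change after PP242 for all 11763 genes tested (grey), 118 other genes of ribosome biogenesis (green) and the 45 members (red). The members' median is -0.06 and the bulk of each list lies within 0.2 of zero.

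RNA polymerase I makes the rRNA precursor, and 1 of the 9 genes of its transcription fell past the threshold (11.1%, against 8.34% of all genes). POLR1C, a subunit that RNA polymerases I and III share, was at 41.2 and 42.1 RPKM in growing cells and at 37.2 and 37.3 RPKM after PP242. The PP242 libraries nearly coincided and lay below both growing libraries, with a log2 change of -0.16 (SE 0.0249, n = 2 against 2, adjusted p = 0.0175 in limma). The call was lost without growing replicate 2 (adjusted p = 0.0679), PP242 replicate 1 (0.0641) or PP242 replicate 2 (0.0574).

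TAF1A, a subunit of the promoter selectivity factor SL1, had the lowest log2 change of this group at -0.20 but did not pass the test (SE 0.0746, adjusted p = 0.157 in limma). It was at 3.22 and 3.28 RPKM in growing cells and at 2.42 and 3.01 RPKM after PP242. The PP242 libraries lay apart, and the log2 change was -0.31 (adjusted p = 0.0229) without PP242 replicate 2 and -0.08 (adjusted p = 0.39) without PP242 replicate 1. POLR1A, the largest subunit of the enzyme, stood on the other side, at 21.05 and 20.3 RPKM in growing cells and 21.8 and 21.5 RPKM after PP242 (log2 change 0.06, adjusted p = 0.231). Its libraries did not overlap, and the SE of the change was 0.0292. The change was 0.09 without growing replicate 1 and 0.04 without growing replicate 2.

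POLR1D, also shared between RNA polymerases I and III, had the highest level of the group, at 53.1 and 51.1 RPKM in growing cells and 50.4 and 49.7 RPKM after PP242 (log2 change -0.06, adjusted p = 0.257). Its change was -0.03 without growing replicate 1 and -0.08 without growing replicate 2. Its other transcripts, at lower levels, had log2 changes of 0.05 and 0.07 and did not pass. The remaining members are the subunits POLR1B and POLR1E, the initiation factor RRN3, which links the polymerase to its promoter, UBTF, which binds rDNA along its length, and the SL1 subunit TAF1C. Their log2 changes ran from -0.09 for POLR1B to -0.02 for RRN3, and in each of them both PP242 libraries lay below the growing ones. Of this group 8 of the 9 changes were negative, and 5 genes were lower at an unadjusted p under 0.05, whereas 52.2% of all genes were negative and 18.8% lower at that p. RRN3 has pseudogene copies of similar sequence, so its level is uncertain.

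Of the 6 abundant nucleolar proteins 1 fell past the threshold (16.7%, against 8.34% of all genes), and NCL and NPM1 had the highest levels of all members. NCL (nucleolin), which binds pre-rRNA, was at 670.3 and 675 RPKM in growing cells and at 657 and 677 RPKM after PP242, and the groups overlapped (log2 change -0.01, 95% interval -0.07 to 0.04, adjusted p = 0.758 in limma). NPM1 (nucleophosmin), a histone and ribosome chaperone, was at 615 and 614 RPKM in growing cells and at 634 and 631 RPKM after PP242. The PP242 libraries were slightly higher, without passing the test (log2 change 0.04, adjusted p = 0.199). NPM1 has processed pseudogenes, and reads matching several loci had been divided among them, so its level is uncertain.

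LYAR, a zinc finger protein of the nucleolus, was the exception in this group. It was at 27.3 RPKM in both growing libraries and at 23.1 and 24.3 RPKM after PP242. Its PP242 libraries lay below the growing ones by more than they differed from each other, with a log2 change of -0.20 (SE 0.0319, adjusted p = 0.0196 in limma), and its other transcript fell as well (adjusted p = 0.0161). The call was lost without growing replicate 1 (adjusted p = 0.0733), growing replicate 2 (0.0666) or PP242 replicate 1 (0.0633). MYBBP1A, a nucleolar binding partner of several transcription factors, had the largest positive change of the group, from 24.2 and 23.4 RPKM to 24.6 and 24.5 RPKM (log2 change 0.04, adjusted p = 0.387), or 0.07 without growing replicate 1 and 0.02 without growing replicate 2. The helicase DDX21 and the snoRNP chaperone NOLC1 had log2 changes of -0.03 and -0.0038, with adjusted p-values of 0.507 and 0.933.

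Among the box C/D and U3 snoRNP proteins, all 4 changes were negative and 1 passed the test (25%, against 8.34% of all genes that fell). The sign for FBL was not stable (0.01 with upper quartile scaling and 0.03 without growing replicate 1). FBL (fibrillarin), the methyltransferase of these particles, had the highest level, at 259 and 246 RPKM in growing cells and 252 and 250.4 RPKM after PP242. Its PP242 libraries lay between the growing ones, and its log2 change was -0.0063 (95% interval -0.08 to 0.07, adjusted p = 0.912 in limma). NOP56, a core protein that sits on the snoRNA beside FBL, was at 91.8 and 89.4 RPKM in growing cells and at 82.8 and 83.7 RPKM after PP242 by its transcript with the highest level, the non-coding NR_027700.2.

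The NOP56 libraries did not overlap, with a log2 change of -0.12 (SE 0.0242, adjusted p = 0.0356). The coding transcript NM_006392.3, with levels of 90.5, 88.2, 83.3 and 83.9 RPKM in the same order, had a log2 change of -0.10 and did not pass (adjusted p = 0.0602). The call on the non-coding transcript was lost when any library was left out, with adjusted p-values of 0.137 and 0.065 without growing replicates 1 and 2 and 0.12 and 0.0867 without PP242 replicates 1 and 2. NOP58, the partner of NOP56, and RRP9, a U3-specific protein, had log2 changes of -0.07 and -0.12 (adjusted p = 0.206 and 0.0645), and their PP242 libraries also lay below the growing ones.

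None of the 4 box H/ACA proteins passed the test in limma, against 8.34% of all genes lower and 3.94% higher. Of the 4, only NOP10 had an unadjusted p under 0.05. NHP2, which binds the RNA of these particles, had the highest level, at 159 and 155 RPKM in growing cells and 162 and 152 RPKM after PP242, with groups that overlapped (log2 change -0.0011, adjusted p = 0.987). NOP10, the smallest core protein, had the largest negative change, from 95.4 and 92.5 RPKM to 90.4 and 84.9 RPKM (log2 change -0.10, SE 0.0357, adjusted p = 0.14). Both of its PP242 libraries were lower, but they differed by more than the growing pair. The change was -0.14 without PP242 replicate 1 and -0.05 without PP242 replicate 2. DKC1 (dyskerin), the pseudouridine synthase, and GAR1 had log2 changes of -0.03 and -0.04 (adjusted p = 0.56 and 0.401).

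In the small subunit group, 3 of 12 mRNAs fell and 1 rose (25% and 8.33%, against 8.34% and 3.94% of all genes). UTP15, a processome subunit that also takes part in pre-rRNA transcription (GRCh37 chr5:72861268-72879205, plus strand), was at 13.3 RPKM in both growing libraries and at 10.7 and 11.2 RPKM after PP242. Both PP242 libraries were clearly lower, with a log2 change of -0.26 (SE 0.0311, adjusted p = 0.0079 in limma). BYSL (bystin), needed to form the small subunit (chr6:41889237-41900784, plus), was at 36.3 RPKM in both growing libraries and at 30.3 and 30.7 RPKM after PP242. The replicates nearly coincided within each condition, and the log2 change was -0.24 (SE 0.0242, adjusted p = 0.0047).

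IMP3, a U3 snoRNP protein (chr15:75931426-75941047, minus), was at 55.1 and 56.2 RPKM in growing cells and at 46.6 and 47.8 RPKM after PP242. The groups did not overlap, with a log2 change of -0.23 (SE 0.026, adjusted p = 0.0064). Its partner IMP4 did not pass the test (log2 change -0.03, adjusted p = 0.58), and its groups overlapped. The calls of UTP15, BYSL and IMP3 were kept without any single library.

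DDX10, a helicase of the processome (chr11:108535785-108811726, plus), was the 1 member that rose, from 22.8 and 22.4 RPKM in growing cells to 24.3 and 24.99 RPKM after PP242. Its groups did not overlap and its log2 change was 0.12 (SE 0.0278, adjusted p = 0.0494 in limma). The adjusted p lay just under the threshold and rose above it when any library was left out, at 0.116 and 0.145 without growing replicates 1 and 2 and 0.0986 and 0.182 without PP242 replicates 1 and 2.

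NOP14, which joins the processome together with a partner methyltransferase, had the highest level of the group, at 56.4 and 56.9 RPKM in growing cells and 56.8 and 59.0 RPKM after PP242 (log2 change 0.03, adjusted p = 0.517). Its change was 0.06 without PP242 replicate 1 and 0.0031 without PP242 replicate 2. The large scaffold proteins UTP20 and HEATR1, the WD-repeat proteins WDR43 and WDR75, the endonuclease NOB1, which makes the last cut of the small subunit rRNA, and RRP12, an export factor, had log2 changes between -0.06 and 0.10. None of these passed the test, with adjusted p-values from 0.204 for RRP12 to 0.70 for UTP20. RRP12 was higher in both PP242 libraries.

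Of the 10 large subunit assembly factors 5 fell (50%) and none rose, against 8.34% and 3.94% of all genes. The median log2 change of this group was -0.11. RRS1, which helps to bring the 5S ribonucleoprotein into the large subunit, was at 38.7 and 36.8 RPKM in growing cells and at 26.4 and 27.0 RPKM after PP242. Every PP242 value lay far below every growing value, and the log2 change of -0.48 (95% interval -0.56 to -0.40, adjusted p = 0.0016 in limma) was the lowest of the 45 members. NIP7, which acts in pre-rRNA processing, was at 18.8 and 18.6 RPKM in growing cells and at 15.7 and 16.1 RPKM after PP242.

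The NIP7 groups did not overlap either, with a log2 change of -0.22 (SE 0.0287, adjusted p = 0.0096), and both of its transcripts fell. The calls of RRS1 and NIP7 were kept without any single library. NOP16, a pre-ribosomal protein, was at 24.1 and 22.7 RPKM in growing cells and at 20.4 and 20.5 RPKM after PP242 (log2 change -0.19, SE 0.0346, adjusted p = 0.0284 in limma). Of its other transcripts NM_001256539.1 fell too (log2 change -0.13, adjusted p = 0.0386), and NM_001256540.1 did not pass (-0.10, adjusted p = 0.073). The growing libraries of NOP16 differed more than the PP242 ones, and the call was lost without growing replicate 1 (adjusted p = 0.0864), PP242 replicate 1 (0.0851) or PP242 replicate 2 (0.0758).

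PPAN, a homologue of a yeast large subunit factor, was at 20.4 and 19.6 RPKM in growing cells and at 17.8 and 18.1 RPKM after PP242 (log2 change -0.15, SE 0.0308, adjusted p = 0.0369 in limma). NOP2, an rRNA cytosine methyltransferase, was at 13.0 and 13.5 RPKM in growing cells and at 11.9 and 11.8 RPKM after PP242 (log2 change -0.15, SE 0.0309, adjusted p = 0.041). In both genes the groups did not overlap, and all 5 listed NOP2 transcripts, which share most of their reads, were called lower. Both calls rested on all 4 libraries. Without growing replicates 1 and 2 and PP242 replicates 1 and 2 the adjusted p was 0.134, 0.0576, 0.127 and 0.0854 for PPAN, and 0.0761, 0.132, 0.108 and 0.135 for NOP2. PPAN shares its sequence with the read-through transcript PPAN-P2RY11, which was at 9.37 and 9.12 RPKM in growing cells and 8.36 and 8.73 RPKM after PP242 (log2 change -0.10, adjusted p = 0.122).

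The PES1, BOP1 and WDR12 proteins form 1 complex in large subunit assembly, and none of their mRNAs passed the test. BOP1 had the largest positive change of the group, from 57.1 and 55.9 RPKM to 58.7 and 59.1 RPKM (log2 change 0.06, adjusted p = 0.188), whereas PES1 and WDR12 were at -0.06 and -0.08 (adjusted p = 0.322 and 0.253). GNL3 (nucleostemin), a GTPase, had the highest level of the group, at 64.4 and 61.9 RPKM in growing cells and 60.9 RPKM in both PP242 libraries (log2 change -0.05, adjusted p = 0.284). Its groups did not overlap, but the change was -0.02 without growing replicate 1 and -0.08 without growing replicate 2. The helicase DDX18 had a log2 change of -0.03 (adjusted p = 0.494).

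**Figure D3:**
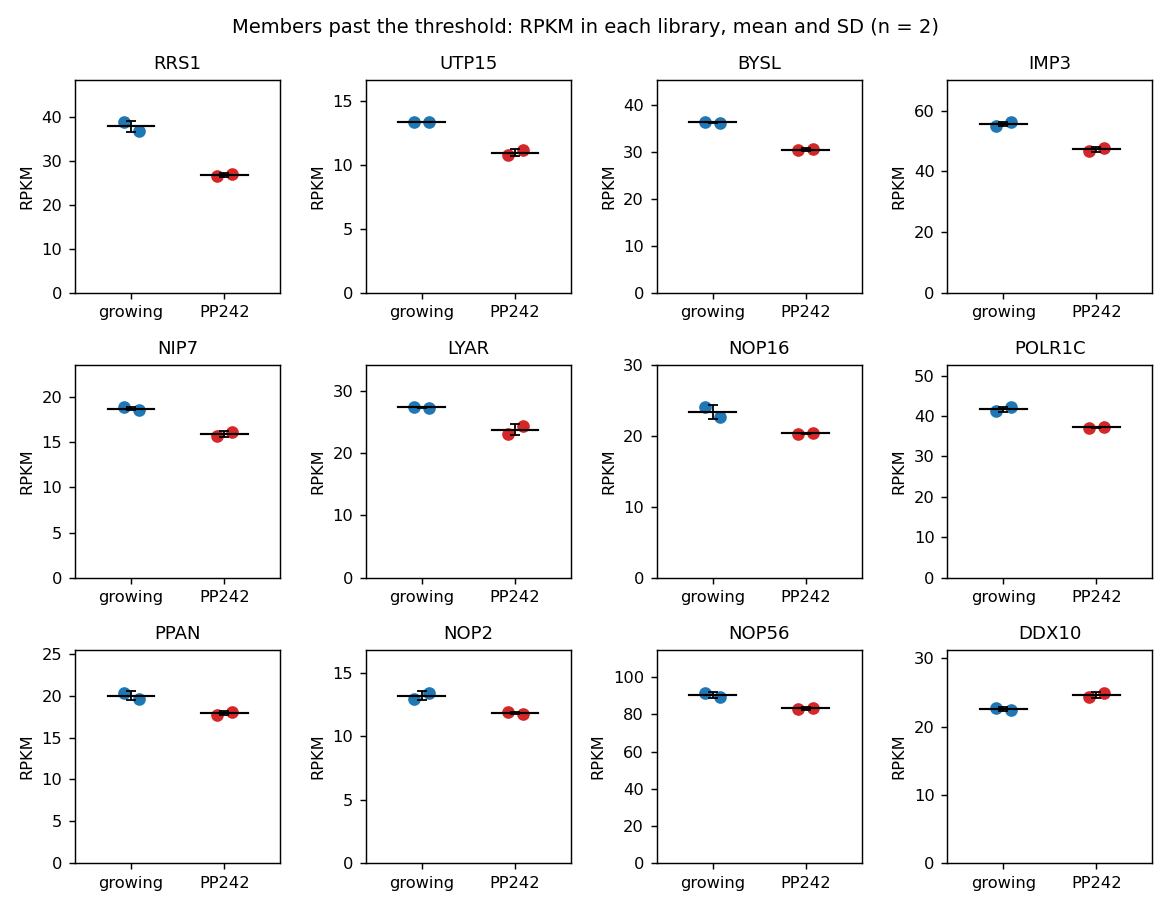
RPKM in each library (points), mean (horizontal line) and SD (error bar, n = 2) of the 12 members past the threshold, ordered by log2 change, on axes that start at 0. RRS1 goes from 38.7 and 36.8 to 26.4 and 27.0 RPKM, and DDX10 alone is higher after PP242.

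The members were also read by level, with no test between levels. A level is that of 1 transcript per gene, and reads that a gene's transcripts share may be divided among them. Of the 23 members with the lowest mean, from 2.49 to 34.2 RPKM, 8 fell and 1 rose, and their median log2 change was -0.08. Of all genes in this range of levels, 9.27% fell and 4.21% rose. Of the 22 with the highest mean, from 36.1 to 669.8 RPKM, 3 fell and none rose in limma, with a median of -0.03, and of all genes in this range 7.19% fell and 3.92% rose. Over all their transcripts, 18 of the 75 fell and 1 rose, against 6.45% and 3.48% of the 21014 transcripts tested.

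The 4 members with a TOP-like start (NPM1, FBL, DDX21 and NOB1) did not pass the test. None of the 10 members that fell and had a promoter entry held such a start, which 6.24% of protein-coding genes hold, so this count says little. The CACGTG motif, held by 10.9% of protein-coding genes, was found in 3 of these 10 (BYSL, LYAR and NOP2) and in 12 of the 27 with an entry that did not pass. No test was made between these counts.

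The same test was read for 118 other genes of ribosome biogenesis. Of these, 15 fell (12.7%) and 0 rose in limma, against 8.34% and 3.94% of all genes. Without growing replicate 1, growing replicate 2, PP242 replicate 1 or PP242 replicate 2 the number that fell was 4, 8, 6 and 5, and without the RPKM filter it was 1. In the fits without a library this was 3.39%, 6.78%, 5.08% and 4.24% of the list, near the 3.65%, 4.27%, 4.63% and 5.08% of all genes, so the difference from all genes was not stable. Without the RPKM filter the 1 gene that fell was 0.847% of the list, against 0.258% of all genes. In the fit of all libraries 39 lay below and 7 above growing at an unadjusted p under 0.05, as did 18.8% and 12.9% of all genes. The largest decreases were those of URB2, UTP3 and CD3EAP. URB2, a large subunit factor, went from 24.3 and 25.0 RPKM to 18.1 and 16.6 RPKM (log2 change -0.48, SE 0.0429, adjusted p = 0.0033), a change of the size of that of RRS1. UTP3, a processome subunit, went from 25.3 and 25.04 RPKM to 19.0 and 19.4 RPKM (log2 change -0.37, SE 0.0264, adjusted p = 0.0018), and CD3EAP, a subunit of RNA polymerase I, from 9.38 and 9.03 RPKM to 7.37 and 6.88 RPKM (log2 change -0.33, SE 0.0411, adjusted p = 0.0089). In all 3 genes the PP242 libraries lay below the growing ones. By role, 2 of 12 further genes of RNA polymerase I, 1 of 10 of the snoRNPs and their assembly, 3 of 37 of the small subunit, 7 of 45 of the large subunit and 2 of 14 of the exosome, which trims pre-rRNA, fell.

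The table also listed 6 small RNAs under the names of NOP56, DKC1 and GNL3, in whose introns they are encoded, and these were kept out of the counts of members. SNORD86, inside NOP56, was at 44.9 and 45.3 RPKM in growing cells and at 35.1 and 35.7 RPKM after PP242, or about 125, 134, 101 and 105 reads. Its log2 change was -0.34 (adjusted p = 0.0019 in limma), and its groups did not overlap. SNORA56, inside DKC1, was also called lower (log2 change -0.49, adjusted p = 0.0435), on 6 to 12 reads per library. SNORD110, SNORD57 and SNORD19B did not pass the test, and MIR1292, with at most 3 reads, was below the filter.

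LARP1 binding was then read for the same genes. Each condition had 1 PAR-CLIP library, so these values have no replicate check, and the sources used here do not give their depth. The lists also hold an undescribed column named for T-to-C changes, the changes by which crosslinked 4-thiouridine is read. Where it is exactly 1, 45 of 49 sites have 0.0388 RPM in the growing list and 38 of 43 sites 0.0353 RPM in the PP242 list. If that column counts converted reads, which is not stated, these steps are what 1 read was worth, and the libraries had about 25800000 and 28300000 mapped reads. As this was not settled, no counting error is given. A site was listed on 11 of the 45 genes in either library, on 2 of them (NPM1 and POLR1A) in both, and on none for the other 34. Of 10722 mRNA genes with a mean of at least 1 RPKM, 18.9% had a listed site in either library and 2.63% in both. By library, 7 members had one under growing conditions and 6 after PP242, against 10.3% and 11.2% of these mRNA genes. With a minimum of 1 RPM, 3 genes had a site under growing conditions and 3 others after PP242, or 6.67% in each. Of the 10722 mRNA genes, 1.76% had such a site under growing conditions and 3.84% after PP242. The members' mRNAs were abundant, with a median of 36.5 RPKM in growing cells, and the part of abundance in these shares was not tested. The summed RPM on members was 3492 under growing conditions and 560.1 after PP242, or 1.32% and 0.196% of the RPM on mRNAs.

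After PP242 the strongest member site lay in the 5’UTR of NPM1 (GRCh37 chr5:170814120-170838814, plus strand), at nt 209–229 of NM_002520.6, with 320.1 RPM. The same site was listed at 0.0018 RPM under growing conditions, which is less than 1 read on the scale above, while NPM1 mRNA was at 615 RPKM in growing cells and 633 RPKM after PP242. Among genes with a 5’UTR site, NPM1 ranked 10 of 121 after PP242 and 94 of 123 under growing conditions. Its place relative to the TOP-like start printed above was not determined.

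The other PP242 sites of at least 1 RPM lay outside 5’UTRs. POLR1B, the second largest subunit of RNA polymerase I (chr2:113299492-113337395, plus), had 199 RPM in its 3’UTR at nt 5363–5383 of NM_019014.4. That transcript was at 9.45 RPKM after PP242. The other POLR1B transcript, listed with the same site RPM, was at 8.81 RPKM. NOB1 (chr16:69775774-69788829, minus) had 40.5 RPM in its CDS at nt 240–258 of NM_014062.1, on an mRNA of 56.5 RPKM. Neither gene had a site in the growing library.

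Under growing conditions almost all of the RPM on members lay on RRS1, whose CDS had 3444.5 RPM at nt 262–290 of NM_015169.3. No site was listed on RRS1 after PP242, when its mRNA was at 26.7 RPKM against 37.8 RPKM in growing cells. Its T-to-C column was low. Of the sites of at least 1 RPM, 43.7% under growing conditions and 67.2% after PP242 had a value within 1% of a fixed multiple of RPM, here called the usual multiple, while 37.1% and 17.8% lay under 1% of it. RRS1 belonged to the latter, at 0.0968% with a value of 86, close to the value of 79 on NHP2, where the RPM was 3.06.

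POLR1A had 44.5 RPM in its CDS at nt 646–659 of NM_015425.3 under growing conditions, with the T-to-C column at 0.0041% of the usual multiple. After PP242 another POLR1A site was listed at 0.0011 RPM. The growing site of NHP2 lay in its 3’UTR at nt 645–664 of NM_017838.3, with the column at 100.03% of the usual multiple. Sites under 1% of that multiple were then left out, a choice made after seeing the data. NHP2 was the 1 member left with at least 1 RPM under growing conditions. All growing member sites left, of any RPM, summed to 3.07 RPM, while the 3 members with at least 1 RPM after PP242 were kept.

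The remaining 5 genes had weak sites, all of them except that of WDR12 under 1 read on the same scale. WDR12 had 0.177 RPM and DDX18 0.0006 RPM after PP242, and HEATR1, NIP7 and WDR43 had 0.0047, 0.0008 and 0.0007 RPM under growing conditions. The site values of all 5 genes were also listed on other genes. By region, members had 1 site in a 5’UTR, 4 in CDSs and 3 in 3’UTRs under growing conditions, and 1, 2 and 3 after PP242. Of the mRNAs that fell, RRS1 and NIP7 had a listed site and the other 9 had none, a share close to the 18.9% of mRNA genes with a site in either library.

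**Figure D4:**
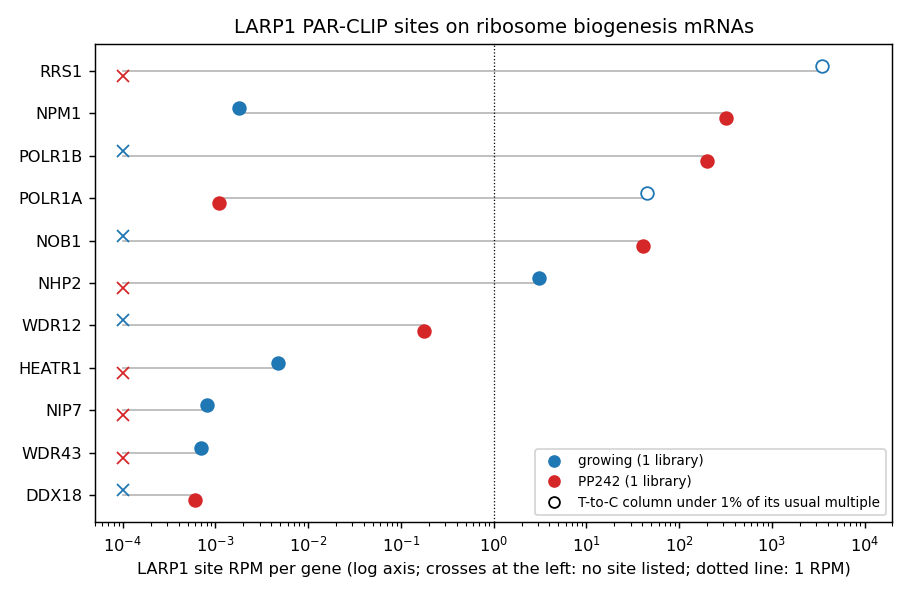
Summed RPM of LARP1 sites per gene on a log axis, for the 11 members with a listed site, under growing conditions (blue) and after PP242 (red), 1 library each. Crosses stand for no listed site, open circles for a T-to-C column under 1% of its usual multiple, and no gene lies above 1 RPM in both libraries.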

How the data were processed

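Per the study's methods, the authors removed linkers and mapped reads to the GRCh37 transcriptome with Bowtie. In the mRNA-seq only reads without a mismatch counted, and a read with several loci gave each an equal part. RPKM was deposited per transcript and library. For PAR-CLIP they grouped overlapping reads that had few T-to-C mismatches, smoothed these groups, required a converted read in each, and deposited RPM per site. The study also names an RPM threshold found from the data and a further scaling of sites in genes by the RPKM of the gene. Whether the deposited RPM carry that scaling was not tested. The deposited T-to-C column is not described and was treated as a score, read as a percentage of its most common multiple of RPM (25.8 growing, 28.3 PP242).

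Of 39711 mRNA-seq lines, 1273 repeats were dropped. Depth was estimated from snoRNA values, of which 90.4% to 96.5% came within 0.1 of whole reads. Reads shared between loci make such read counts approximate. The limma package (3.58.1, in R 4.3.3) was run with lmFit and a variance trend in eBayes. Its input was log2(RPKM + 1) of every transcript whose mean reached 1 RPKM, without a block, with Benjamini-Hochberg adjustment over all 21014. This scale understates changes of low mRNAs. With 2 against 2 libraries, an exact permutation test cannot go below p = 0.333. On simulated data of these 21014 transcripts, 87, 170 and 197 of 200 changes of 0.2, 0.3 and 0.5 (log2) were called, with 4, 16 and 9 unchanged transcripts, and no call was made at 0.1 or with none changed. A site repeated on isoforms was counted once per gene.

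Values in every library are printed for members past the threshold and, by role, those with the highest level, largest rise and largest fall. The same holds for members with a site of at least 1 RPM, except POLR1B and NOB1, given by their mean RPKM after PP242. It also holds for the 3 largest significant rises and falls among the other genes of the pathway, where none rose. The members and lists were chosen with earlier results of these data known. Alternatives were other pseudocounts, filters and scalings, a replicate block, no variance trend, summing by gene, leaving out each library, and other site filters. Starts came from RefSeq promoters (GRCh38.p14) matched to GRCh37, and gene spans from GENCODE. Other steps used Python 3.11.15, numpy 2.4.6, pandas 2.3.3 and matplotlib 3.10.9.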

Additional observations from a re-analysis of the deposited data

How the results depend on the processing

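With 2 libraries per condition, changes under about 0.2 (log2) are at the limit of the test, and single PAR-CLIP libraries allow none. No named gene changed direction past the threshold under any alternative. Of 13 alternatives, 12 kept the calls of RRS1, BYSL, IMP3, UTP15 and NIP7, and the exception was the fit with no RPKM filter. In that fit 0 members fell and 0 rose, against 0.258% and 0.174% of all genes. Of the other genes of the pathway 1 fell (0.847%). At an unadjusted p under 0.05 in limma, 16 members lay below and 2 above growing. That fit also tests transcripts with a mean below 1 RPKM, and why the calls were lost in it was not tested.

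Leaving out each library gave 5 to 7 members lower, 0 higher, a median log2 change of -0.066 to -0.038 and 4 to 8 other genes of the pathway lower (3.39% to 6.78%, against 3.65% to 5.08% of all genes). The lone library of a condition was then assumed to vary like the rest. The members' median was -0.048 with a pseudocount of 5 and -0.039 with upper quartile scaling, which moved the median of all genes to 0.01. Without a variance trend 8 members were lower (NOP56, NOP2 and PPAN were lost) and 0 higher, against 7.06% and 3.28% of all genes, and with upper quartile scaling 9 were lower (NOP56 and NOP2 were lost, at adjusted p = 0.0536 and 0.0623 in limma) and 1 higher, against 6.79% and 4.91%. Other genes of the pathway higher were 1 with a minimum of 5 RPKM, 2 with upper quartile scaling and 1 with RPKM summed by gene. Of all genes 5.28%, 4.91% and 4.03% were higher in the same fits.

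Deviations of same-numbered libraries correlated at r = 0.0401 over 2 pairs, so the numbers were not taken as pairs. With the replicate number as a block, 12 members were lower and 0 higher, against 9.02% and 4.08% of all genes, and DDX10 had an adjusted p of 0.0597.

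With any listed site, 7 members were bound under growing conditions and 6 after PP242, against 10.3% and 11.2% of mRNA genes. With the T-to-C column at least at 1% of its usual multiple and a minimum of 1 RPM, 1 member was bound under growing conditions. All growing member sites at that limit of the column, of any RPM, summed to 3.07 RPM. The growing sum was 3448 RPM without sites shared with other genes, and the PP242 sum was 1400 RPM (1399.7) when isoform copies were all counted.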
